A study of Homo sapiens with 38 samples.

Results

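In H661 lung cancer cells, 139 of 19962 protein-coding promoters carried RING1B and PCGF1 and lacked EP300 in the control arms of both short hairpin lines. Each promoter was the GENCODE canonical transcription start site (TSS) with 1500 bp on either side, and it carried a protein when a domain of that protein touched this window. Domains are broad stretches of enriched 100 bp bins called by EPIC2, kept at a false discovery rate (FDR) below 0.05 and a log2 fold over IgG above 1. The promoters were thus chosen by the RING1B, PCGF1 and EP300 domains of the control arms, and these values are described below and not tested. Sets used for comparison were 2698 promoters with RING1B, PCGF1 and EP300 in both lines (EP300-positive promoters) and 1047 with RING1B in both lines and neither PCGF1 nor EP300 in either (RING1B-only promoters).

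Binding was measured by CUT&RUN, in which antibody-tethered nuclease frees the DNA around a protein for sequencing. Both cell lines come from non-small cell lung cancers. H661 makes its own DPPA2 and DPPA4, whereas H1299 makes neither and was given inducible Flag-DPPA2 (tagged at the N-terminus) and V5-DPPA4. H661 was profiled as parental cells (4 antibody libraries, no treatment) and as a pair of lines with tetracycline-inducible miR30-based hairpins, against DPPA4 (shDPPA4) or against DPPA2 and DPPA4 together (shDPPA2+4), with 7 libraries each after 7 days of water (control) or 2 µg/mL doxycycline. RING1B and DPPA4 were profiled in both arms of each hairpin line, and PCGF1, EP300 and MTF2 with water only. H1299 had 12 libraries after 7 days of 2 µg/mL doxycycline, from 6 antibodies with 2 replicates each, and no uninduced library with an antibody to DPPA2 or DPPA4 was used here. All modified lines were bulk populations sorted for fluorescent reporters after PiggyBac transposition, not clones, and no line with a non-targeting hairpin was among the libraries, so hairpin and doxycycline effects cannot be told apart. H661 had 1 library per antibody, line and arm, with no replicate check. The labels do not say whether H1299 replicates were separate cultures, so p-values there measure the spread between libraries, which may be technical.

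Polycomb repressive complex 1 (PRC1) places ubiquitin on histone H2A through its E3 ligase RING1B. PCGF1 belongs to a variant form of that complex, whose partner KDM2B binds unmethylated CpG islands. MTF2 is an accessory subunit of Polycomb repressive complex 2 (PRC2), the methyltransferase of H3K27, and also binds CpG-rich DNA. EP300 is an acetyltransferase of H3K27 and a coactivator, and DPPA2 and DPPA4 are SAP domain proteins that act together in the early embryo. In embryonic cells, Polycomb complexes are known for holding genes of body patterning and cell fate silent but inducible.

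Upstream sequences of 3 of these promoters are given. KLF14 was taken for its many CG dinucleotides, and PAX7 and EIF3B, close in CG number, for the different MTF2 binding described below. Each is the 250 bases immediately before the TSS in genome build hg38, from 5′ to 3′ on the strand of the gene, with every CG in capitals. No annotated exon overlapped any of them. KLF14 (chr7:130734208-130734457, minus strand) encodes a Krüppel-like transcription factor. PAX7 (chr1:18630596-18630845, plus strand) encodes a transcription factor of muscle and neural progenitors and is among the leading promoters for MTF2. EIF3B (chr7:2354577-2354826, plus strand) encodes a subunit of translation initiation factor 3 and carried no MTF2 domain.
KLF14: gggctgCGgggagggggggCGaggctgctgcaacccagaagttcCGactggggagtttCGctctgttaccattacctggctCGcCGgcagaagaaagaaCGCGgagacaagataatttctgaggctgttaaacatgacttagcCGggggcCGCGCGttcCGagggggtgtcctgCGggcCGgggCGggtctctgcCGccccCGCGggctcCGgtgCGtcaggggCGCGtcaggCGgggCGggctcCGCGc
PAX7: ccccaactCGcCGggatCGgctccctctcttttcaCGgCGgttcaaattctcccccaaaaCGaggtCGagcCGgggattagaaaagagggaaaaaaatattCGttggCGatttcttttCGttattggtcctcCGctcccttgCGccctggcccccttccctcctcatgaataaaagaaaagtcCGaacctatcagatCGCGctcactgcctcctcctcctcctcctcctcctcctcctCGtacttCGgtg
EIF3B: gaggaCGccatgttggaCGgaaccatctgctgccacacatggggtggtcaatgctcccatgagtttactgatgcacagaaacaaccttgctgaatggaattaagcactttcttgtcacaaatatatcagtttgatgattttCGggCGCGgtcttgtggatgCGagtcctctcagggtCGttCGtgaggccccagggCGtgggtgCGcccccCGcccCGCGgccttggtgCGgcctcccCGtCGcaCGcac
The 3 sequences held 27, 18 and 17 CG dinucleotides in this order, beside a median of 22 over the 139 promoters (quartiles 16 and 30.5), 24 over EP300-positive promoters and 18 over all promoters. RING1B lay over the KLF14 sequence itself, in domains at chr7:130733401-130737100 (375 reads, shDPPA4 control) and chr7:130733401-130737400 (260 reads, shDPPA2+4 control). At PAX7 the RING1B domain of the shDPPA4 line ran from chr1:18630801 to 18634700, mostly downstream of the TSS, inside an MTF2 domain from 18629601 to 18648300 with 4767 reads.

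Genes of body patterning among the 139 included 5 of 39 HOX cluster genes, 29 of 337 other developmental transcription factors and 8 of 180 signalling ligands and receptors. The EP300-positive promoters held 13, 87 and 24 genes of these lists and the RING1B-only promoters 2, 35 and 26. As shares of each set, other developmental transcription factors came to 20.9% of the 139, 3.22% of EP300-positive, 3.34% of RING1B-only and 1.69% of all promoters. No test was made of these counts, and the gene lists were drawn up with earlier results of these data known. None of the 139 belonged to the lists of ZNF zinc finger genes (0 of 515), ribosomal proteins (0 of 85), replication-dependent histones (0 of 69), splicing genes (0 of 104), cilium genes (0 of 164), Polycomb subunits (0 of 45) or pluripotency genes (0 of 30). With 139 of 19962 promoters in the set, most of these lists would hold few members at the overall share, so nothing is read from the zeros. EP300-positive promoters held 52 ZNF genes, 27 histone genes and 28 splicing genes.

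The promoters were ordered by the worst of their ranks for RING1B and PCGF1 read density in both control arms. GATA6, a transcription factor of endoderm and lung development, came first, and the leading promoters also included TTI2, a chaperone partner of PIKK kinases, GDNF, a neurotrophic factor, CYB5D1, ENTREP2, GDF7, a BMP family ligand, DNAJC22, COMMD8, which takes part in endosomal trafficking, and EMX2, a homeobox factor of the forebrain. HOX members included HOXB8, HOXA11, HOXB4 and HOXD1, which pattern the body axis, and signalling members included RSPO3, a Wnt agonist, WNT2 and ROBO3, an axon guidance receptor. GRIN2C, an NMDA receptor subunit, and KCNA3, a potassium channel, came from the list of 275 ion channels and transmitter receptors. GATA6 was also the only member from the 25 lung lineage markers, and TWIST2, a mesenchymal regulator, the only member from 30 epithelial and mesenchymal markers. The genes lay on every autosome and on X, with the most, 13, on chromosome 2. A second protein-coding TSS lay in 3 of the 139 windows (2.16%), compared with 14.9% of all, 24.9% of EP300-positive and 6.59% of RING1B-only windows.

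RING1B formed long domains at these promoters, and PCGF1 domains were short and shallow here as in the other promoter sets with PCGF1. GATA6 (chromosome 18, TSS 22169589) had a RING1B density of 126 reads per kb of domain in the shDPPA4 control arm and 102 in the shDPPA2+4 control arm. PCGF1 density at GATA6 was 43.9 and 35.5 reads per kb. Over the 139 promoters RING1B density ran from 21.1 to 171 reads per kb (median 47.0) in shDPPA4 control cells and from 20.7 to 102 (median 43.6) in shDPPA2+4 control cells. PCGF1 domains held a median of 14 and 24 reads, down to 7 and 8, so a single PCGF1 call can rest on few reads. EP300-positive promoters had medians of 19 and 20 reads, and all promoters with a PCGF1 domain 16 and 17. Median PCGF1 length was 600 bp and 900 bp, compared with 600 bp and 700 bp at EP300-positive and 600 bp in both lines at all promoters. By MACS2, which calls narrow peaks, 138 of the 139 had a RING1B peak in either line but only 26 and 19 a PCGF1 peak. These PCGF1 shares, 18.7% and 13.7%, compare with 27.2% and 11.6% of EP300-positive and 5.35% and 2.11% of all promoters. The summed length of RING1B domains had a median of 2600 bp and 2500 bp, compared with 1400 bp and 1200 bp at EP300-positive promoters. RING1B density itself was lower than at EP300-positive promoters, with medians of 74 and 53.6 reads per kb there. These are values of the libraries that chose the sets. Over all promoters, RING1B domains touched 63.8% and 60.0%, PCGF1 domains 25.7% and 24.3% and EP300 domains 50.1% and 52.5% in the respective control arms.

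The rule has sharp edges, and some promoters sat next to them. EIF3B had the lowest RING1B fold inside the set in the shDPPA4 line (log2 1.40) and CNOT3, a subunit of the CCR4-NOT deadenylase, in the shDPPA2+4 line (log2 1.39). The lowest PCGF1 folds lay closer to the limit than the lowest RING1B folds, with NAT14 (log2 1.05) and PLLP (1.04) just inside. LDLRAD4 (0.99) and PIP4P1 (0.92) were just outside. NEK7 (log2 1.02) and ABI1 (1.00) were left out for an EP300 domain in a single line. EP300 domains at a lower fold touched 9 and 23 of the 139, the highest being those of MMP24OS (0.92) and CYB5D1 (0.98), and MACS2 called an EP300 peak at 3 in each line. Of the 1047 RING1B-only promoters, also without EP300 by the rule, 9 and 28 had a lower-fold domain and 8 and 18 a MACS2 peak. Over all 19962 promoters, EP300 domains at any fold touched 10358 and 10956, and those above the limit 10009 and 10480. With EP300 absent at any fold by either caller, 112 promoters remained. The nearest EP300 domain lay a median of 59338 bp and 54150 bp from the TSS, and the closest were at 1560 bp (FJX1) and 1633 bp (HOXD1). Of 3163 promoters with RING1B and PCGF1 in both lines, 2698 had EP300 in both, 156 in shDPPA4 alone and 170 in shDPPA2+4 alone.

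MTF2, which the rule did not use, was present at nearly all of these promoters and in long domains. PDGFRA, a growth factor receptor of mesenchymal cells, had 377 and 492 MTF2 reads per kb in the shDPPA4 and shDPPA2+4 control arms, LHX5, a homeobox factor of the brain, 297 and 386, and PAX7 248 and 366. EMX2 had 226 and 308, and FOXF2, a forkhead factor of mesenchyme, 298 and 305. MTF2 domains at EMX2 covered 25100 bp and 27600 bp, and at FOXF2 22900 bp and 27600 bp. All 5 have developmental roles, and their MTF2 domains were longer than their RING1B domains in both lines.

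An MTF2 domain touched 132 of 139 promoters in the shDPPA4 line (95%, exact 95% binomial interval 89.9–98.0%; background over all promoters 61.5%) and 129 in the shDPPA2+4 line (92.8%, 87.2–96.5%; background 62.1%). Intervals here and below cover counting error only. Both lines had MTF2 at 128 of the 139 (92.1%; background 56.4%), at 80.4% of EP300-positive and at 88.0% of RING1B-only promoters. MTF2 peaks by MACS2 were a median of 23.5-fold over local background in shDPPA4 control cells (quartiles 11.5 and 42.3) and 22-fold in shDPPA2+4 control cells (10.5 and 35.4). EP300-positive promoters had 7.33-fold and 6.85-fold, and RING1B-only promoters 14.9-fold and 14.7-fold. The length of MTF2 domains followed the same order, at 4200 bp and 4900 bp compared with 1300 bp and 1400 bp at EP300-positive promoters. There is 1 MTF2 library per line, so these differences have no test. With the rule applied to the shDPPA4 control arm alone, the share with MTF2 fell below that of EP300-positive promoters by 6.73 percentage points instead of lying 7.34 points above it.

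**Figure D1:**
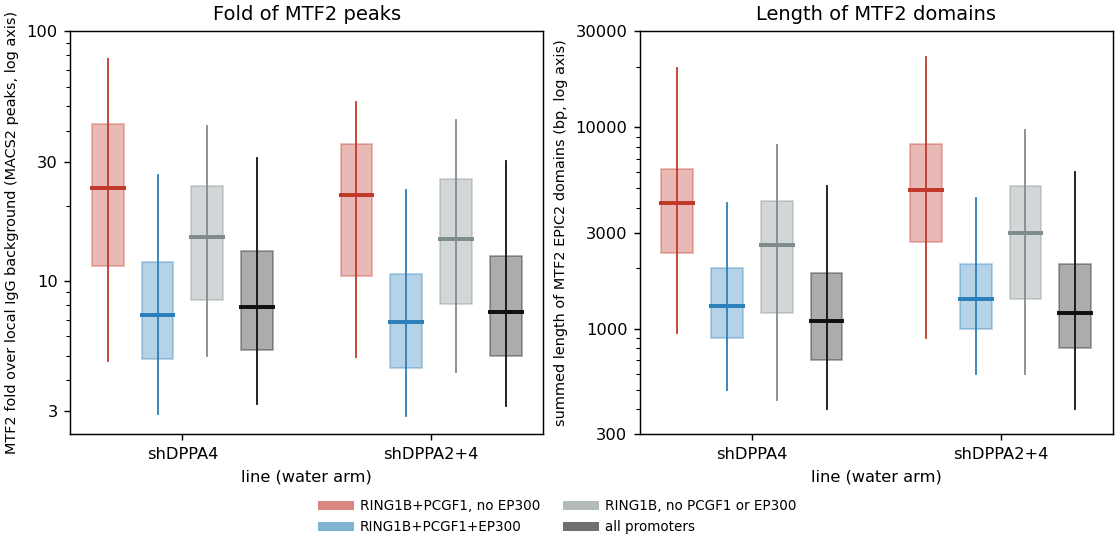
MTF2 in the control arm of each line by promoter set, as fold of MACS2 peaks over local IgG background (left, log axis) and summed length of EPIC2 domains in bp (right, log axis), among promoters with such a region. Thick lines are medians, boxes quartiles and thin lines the 5th to 95th percentile; the RING1B and PCGF1 promoters without EP300 have the highest medians, 23.5-fold and 22-fold.

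Only 6 of the 139 had no MTF2 domain in either line, and none of them was a developmental transcription factor or a signalling gene of the lists. They were CYB5D1, TTI2, CNOT3, the translation initiation factor 3 subunits EIF3B and EIF3D, and ALOXE3, an epidermal lipoxygenase named here after its values were seen. All 6 carried DPPA2 and DPPA4 in parental H661 and in replicate 1 of H1299, whereas 62 and 86 of the 128 promoters with MTF2 in both lines did so. Their RING1B domains had a median length of 1700 bp and 1500 bp, compared with 2750 bp and 2600 bp. At TTI2, MACS2 nevertheless called MTF2 peaks of 8.92-fold and 7.75-fold. These promoters also lay near the EP300 limit, CYB5D1 with an EP300 domain of log2 0.98 in the shDPPA2+4 line. Among the 112 promoters with no EP300 region at any fold by either caller, the mean MTF2 share of the lines was 99.1%. Most of the 6 were therefore not among those 112.

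In parental H661 cells DPPA2 and DPPA4 were found together at 73 of these promoters and neither at 30. THTPA, a thiamine triphosphatase, had the strongest peaks, 18.1-fold over local background with the DPPA2 antibody, 18.3-fold with the N-terminal DPPA4 antibody (DPPA4n) and 17.3-fold with the DPPA4 antibody ab154642. TTI2 had 13-fold, 15.9-fold and 12.4-fold, and CYB5D1 12.5-fold, 10.8-fold and 14.9-fold. SLC37A1, a sugar phosphate transporter, had 14.7-fold, 9.52-fold and 9.94-fold, and HOXB4 10.2-fold, 11.4-fold and 9.76-fold. GATA6 had 7.93-fold, 5.08-fold and 5.59-fold. In contrast, PAX7, EMX2, LHX5, WNT2, RSPO3 and ROBO3 had no MACS2 peak with any of the 4 antibodies. The parental DPPA4n library held 678692 reads in domains, compared with 6708227 and 2699987 in the hairpin-line control arms. By EPIC2 domains in those control arms, only 3 of the 139 lacked DPPA4n in both lines (2.16%, compared with 27.7% of all promoters). A missing parental peak is therefore not read as absence of binding in H661.

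A DPPA2 peak touched 100 of the 139 promoters (71.9%, 63.7–79.2%; background 46.4%) and a DPPA4n peak 82 (59.0%, 50.3–67.3%; background 47.0%). With ab154642 it was 74 (53.2%; background 50.6%), close to the background, and with the antibody to the centre of DPPA4 7 (5.04%; background 5.47%), no more than the background. EP300-positive promoters had 88.5%, 92.8%, 95% and 20.6% with these antibodies, and RING1B-only promoters 29.7%, 22.9%, 22.9% and 0.573%. The 73 promoters with both DPPA2 and DPPA4n peaks were 52.5% of the set (43.9–61.0%; background 39.2%), compared with 85.0% of EP300-positive and 18.0% of RING1B-only promoters. Another 27 promoters (19.4%) carried DPPA2 without DPPA4n, ENTREP2 among them, compared with 7.19% of all, 3.56% of EP300-positive and 11.7% of RING1B-only promoters. DPPA4n without DPPA2 was found at 9 (6.47%; 7.84% over all promoters), and 30 (21.6%; background 45.8%) had neither. The 34 HOX and other developmental factors carried both proteins at 11 promoters and the other 105 genes at 62. In the hairpin-line control arms, DPPA4n domains touched 32 and 30 of the 34 and 102 and 95 of the 105. MTF2 peaks were a median of 33.7-fold and 27.3-fold at the 34, and 18.6-fold and 18.9-fold at the 105. With a domain required to cover the TSS, the set shrank to 81 promoters and the share with both proteins to 24.7%.

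Next, the introduced proteins in H1299 were examined, which addressed where DPPA2 and DPPA4 bind in a cell that lacks its own. GATA6 and KLF14 carried a domain in all 12 libraries, as did ROR1, a receptor of Wnt ligands, UST, a sulfotransferase, and F2R, the thrombin receptor. At GATA6 the log2 fold over IgG was 3.97 and 3.59 in the replicates of the DPPA2 antibody, 4.69 and 5.45 with DPPA4n, 4.75 and 2.69 with ab154642, 3.67 and 4.06 with the Flag monoclonal, 3.51 and 3.46 with the Flag superclonal, and 4.18 and 2.72 with V5. KLF14 spanned 1.82 to 5.95 over the same libraries. In all, 6 of the 139 had a domain in every library (4.32%; background 3.97%) and 24 in none (17.3%; background 31.7%). PAX7, EMX2, PDGFRA, WNT2, ESX1, KCNA3 and ADGRA1 were among the promoters with none, although PDGFRA had 10.6-fold DPPA2 and 6.21-fold DPPA4n peaks in H661. UST, in turn, had no peak in parental H661.

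The DPPA2 antibody found 72.7% of the 139 in replicate 1 (background 62.8%) and 50.4% in replicate 2 (background 42.5%). DPPA4n found 72.7% and 33.1% (background 64.3% and 37.6%), and ab154642 47.5% and 45.3% (background 56.7% and 49.6%). The Flag monoclonal antibody found 65.5% and 5.76% (background 59.4% and 5.28%), the Flag superclonal 63.3% and 30.2% (background 58.9% and 33.8%), and V5 79.1% and 64% (background 65.2% and 53.0%). The share was above the background in 8 libraries and below it in 4, and replicate 2 was lower for each of the 6 antibodies. Replicate 2 of the Flag monoclonal antibody was a thin library, with 4904 domains.

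Compared with EP300-positive promoters, the 139 had a lower share of bound promoters in all 12 libraries. The mean difference was −31.0 ± 9.5 percentage points (SD, n = 6 antibody means), negative for 6 of 6 antibodies (exact two-sided sign-flip permutation test, p = 0.03125, adjusted p = 0.0469 over 3 tests). Compared with RING1B-only promoters the share was higher in all 12, by 17.7 ± 4.4 points (SD, n = 6), positive for 6 of 6 antibodies (same exact test, p = 0.03125, adjusted p = 0.0469). A p of 0.03125 is the smallest that 6 antibodies can give. All antibodies were applied to cells of 1 line, so the 6 means are not independent cultures. The libraries directed at DPPA2 (DPPA2 and Flag antibodies) had a mean share of 48.0% ± 25.5 (SD, n = 6) and those directed at DPPA4 one of 57.0% ± 17.8 (SD, n = 6). Their gap, −8.99 points, was smaller than the SD of either group (exact two-sided permutation test, p = 0.511, adjusted p = 0.511, smallest possible p 0.00216). That test counts replicates of an antibody as separate units, so its smallest p is lower than the antibodies alone would allow. Without the thin replicate 2 of the Flag monoclonal antibody, left out after seeing the data, the gap was −0.55 points (exact permutation p = 0.965).

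**Figure D2:**
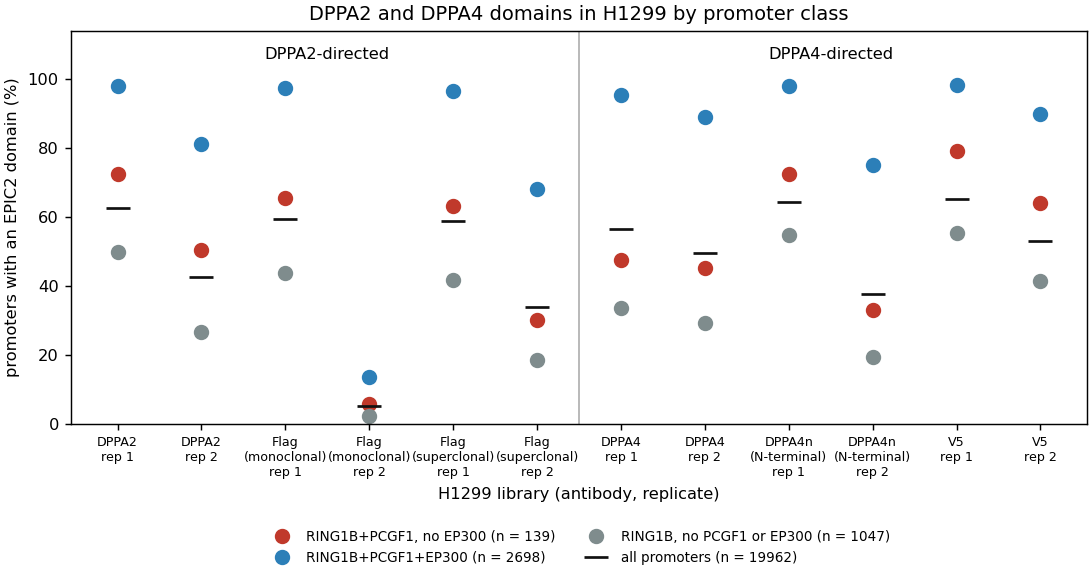
Percentage of promoters with an EPIC2 domain (vertical axis) in each of the 12 H1299 libraries (horizontal axis), with 1 point per promoter set and a dash for all promoters. The RING1B and PCGF1 promoters without EP300 lie between the other sets in every library, from 5.76% to 79.1%.

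The binding in H661 was then set beside that in H1299. H661 was read by MACS2 peaks and H1299 by EPIC2 domains, so the shares are not of the same measure. By EPIC2 domains, 65.5% of the 139 carried both proteins in parental H661. In replicate 1 of H1299, 97 of the 139 (69.8%; background 61.4%) carried both DPPA2 and DPPA4n. These included 64 of the 73 promoters bound in H661 (87.7%, below the 93.9% of all promoters bound in H661), which were 66.0% of the 97 (59.9% over all promoters). Replicate 2 had both proteins at 44 (31.7%; background 30.7%), each of which also had both in replicate 1, as did 6114 of 6124 over all promoters. Of the 34 HOX and other developmental factors 18 were bound in replicate 1, and of the other 105 genes 79.

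DPPA4, a target of both hairpin designs, was then followed at these promoters in the hairpin lines. KLF14 had a DPPA4n density of 43.8 reads per kb in the shDPPA4 control arm and 13.1 in the shDPPA2+4 control arm, with no domain after doxycycline in either line. PDGFRA went from 110 to 54.8 reads per kb (per library read) in shDPPA4 cells and from 42.4 to no domain in shDPPA2+4 cells. ROR1 went from 46.5 to 14.3 in shDPPA2+4 cells but from 112 to 116 in shDPPA4 cells, and CNOT3 went from 237 to 253 and from 146 to 137. THTPA, the strongest DPPA2/4 promoter in H661, went from 96.3 to 92.5 and from 55.3 to 77.9. CNOT3 and THTPA thus kept a domain in both lines, ROR1 too, while KLF14, of lower density, lost it in both.

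With water, a DPPA4n domain touched 134 of the 139 in the shDPPA4 line (96.4%; background 71.7%) and 125 in the shDPPA2+4 line (89.9%; background 67.7%), and 123 in both. After doxycycline the domain was gone from 55 of 134 in the shDPPA4 line (41.0%, 32.6–49.9%; background 21.0%) and from 43 of 125 in the shDPPA2+4 line (34.4%, 26.1–43.4%; background 9.85%). Of the 123 with a domain in both control arms, 26 lost it in both lines. By the same count, loss in both was found at 980 of 13395 over all, 2 of 2694 EP300-positive and 216 of 597 RING1B-only promoters. Over all promoters a DPPA4n domain remained at 56.9% and 61.4% after doxycycline, compared with 56.8% and 59.0% of the 139. EP300-positive promoters lost 0.853% and 0.223% of their domains, and RING1B-only promoters 66.9% and 41.9%. Low density moved with this loss. Where EP300-positive promoters had a DPPA4n density between the quartiles of the 139, they lost 9.15% and 2.87%, compared with 39.4% and 25.4% of the 139 in that range. At the promoters that kept a domain, the median log2 change per library read was −0.49 in shDPPA4 cells (79 promoters, quartiles −0.77 and −0.03; all promoters −0.37) and −0.81 in shDPPA2+4 cells (82 promoters, quartiles −1.15 and −0.36; all promoters −0.62). A density lower by over 1.5-fold was found at 35 of 79 (44.3%; background 32.4%) and 56 of 82 (68.3%; background 53.2%), and a higher one at 2 (background 4.45%) and 1 (background 1.11%). The summed domain length went from a median of 3100 bp to 800 bp and from 2950 bp to 1100 bp. With 1 library per arm no test applies. The medians depend on the scaling. In shDPPA4 cells they were −1.33 unscaled, −0.12 centred on all promoters and −2.29 for total reads, and in shDPPA2+4 cells 0.13, −0.19 and −1.99.

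**Figure D3:**
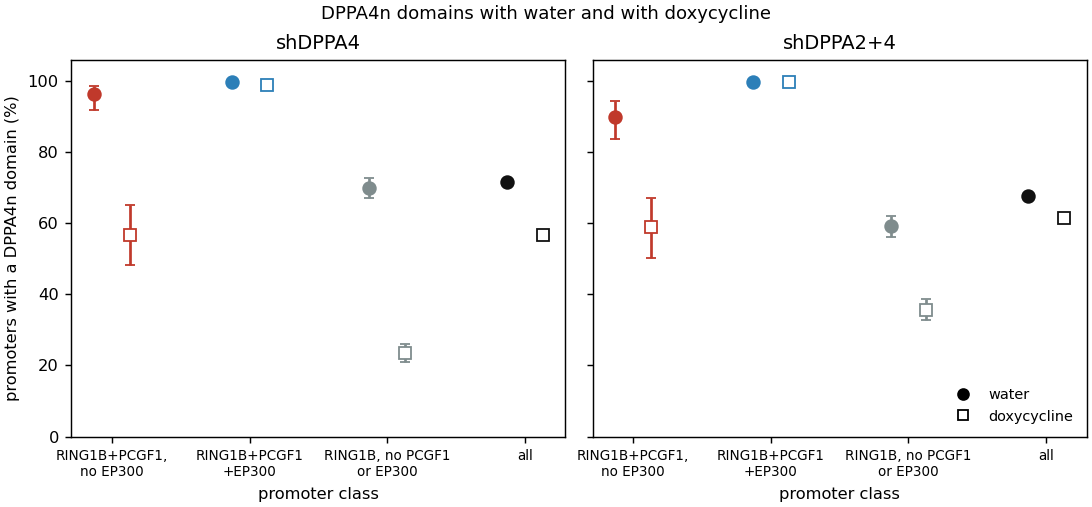
Percentage of promoters with a DPPA4n domain (vertical axis) with water (filled circles) and doxycycline (open squares) by promoter set in each line, with bars for exact 95% binomial intervals where wider than the symbol. At RING1B and PCGF1 promoters without EP300 it went from 96.4% to 56.8% and from 89.9% to 59.0%.

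RING1B domains stayed at most of these promoters after doxycycline. Read density of the EPIC2 domains was lower in shDPPA2+4 cells and had little net change in shDPPA4 cells. At GATA6 RING1B density went from 126 to 154 reads per kb (per library read) in shDPPA4 cells and from 102 to 78.2 in shDPPA2+4 cells. At PAX7 it went from 101 to 97.5 and from 94.0 to 62.0 and at KLF14 from 101 to 104 and from 65.0 to 55.5. All 3 were therefore lower after doxycycline in shDPPA2+4 cells, and only PAX7 was lower in shDPPA4 cells. Among the HOX genes, HOXB8 went from 96.8 to 105 and from 68.0 to 37.0, and HOXA11 from 60.0 to 62.4 and from 49.4 to 25.8. Ranked by the smaller of the falls in the 2 lines, the largest were those of C16orf74 (log2 −0.90 in shDPPA4 and −0.89 in shDPPA2+4), NAA30, an N-terminal acetyltransferase (−0.66 and −0.84), VAX1 (−0.66 and −0.94), DLX5, a homeobox factor of bone and forebrain (−0.65 and −0.65), and FAM167A (−0.62 and −1.50). Ranked by the larger fall, the smallest were those of F2R (0.21 and −0.07), KLF14 (0.04 and −0.23), ADGRA1 (−0.24 and −0.08), ZDHHC22 (0.18 and −0.24) and SLC37A1 (0.06 and −0.27).

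In shDPPA4 cells 1 of the 139 lost its RING1B domain, EIF3D, a translation initiation factor 3 subunit (0.719%; background 3.93%). The median log2 change over the other 138 was 0.06 (quartiles −0.25 and 0.24), compared with −0.34 at EP300-positive, −0.03 at RING1B-only and −0.28 at all promoters. Density was lower by over 1.5-fold at 11 of 138 (7.97%; background 22.7%) and higher by over 1.5-fold at 6 (4.35%; background 1.62%). Domain length rose from a median of 2650 bp to 4000 bp (1400 bp to 1700 bp at EP300-positive, 1000 bp to 2000 bp at RING1B-only and 1000 bp to 1300 bp at all promoters), and summed reads per library read rose by a median log2 of 0.55. EPIC2 kept more RING1B domains after doxycycline in this line over the whole genome (42613 and 61213) and MACS2 fewer peaks (29812 and 18451). By MACS2, 138 of the 139 had a RING1B peak with water and 134 with doxycycline. The median fold of these peaks over local background fell from 12.1 to 9.16 (6.74 to 5.96 over all promoters). The part of these caller differences in the result was not tested.

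In shDPPA2+4 cells 9 of the 139 lost the domain: TTI2, CDC20, an activator of the anaphase-promoting complex, THTPA, PRKAR1A, a regulatory subunit of protein kinase A, CNOT3, PRR18, BMERB1, BACE1, the beta-secretase, and NAT14 (6.47%, 3.0–11.9%; background 22.8%). EP300-positive promoters lost 12.9% and RING1B-only promoters 26.5%. At the remaining 130 the median log2 change was −0.70 (quartiles −0.88 and −0.55), with values from −1.50 to −0.07, all below 0 as were 8712 of 9243 over all promoters, and 90 of the 130 were lower by over 1.5-fold (69.2%; background 60.7%) and 0 higher by over 1.5-fold (background 0.530%). Over all promoters a RING1B domain was present after doxycycline at 65.8% in shDPPA4 and 48.6% in shDPPA2+4 cells. Medians were −0.74 at EP300-positive, −0.61 at RING1B-only and −0.69 at all promoters, so the fall at these promoters was about that of all promoters with RING1B. It rests on library sizes, since without scaling the median was −0.0056.

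**Figure D4:**
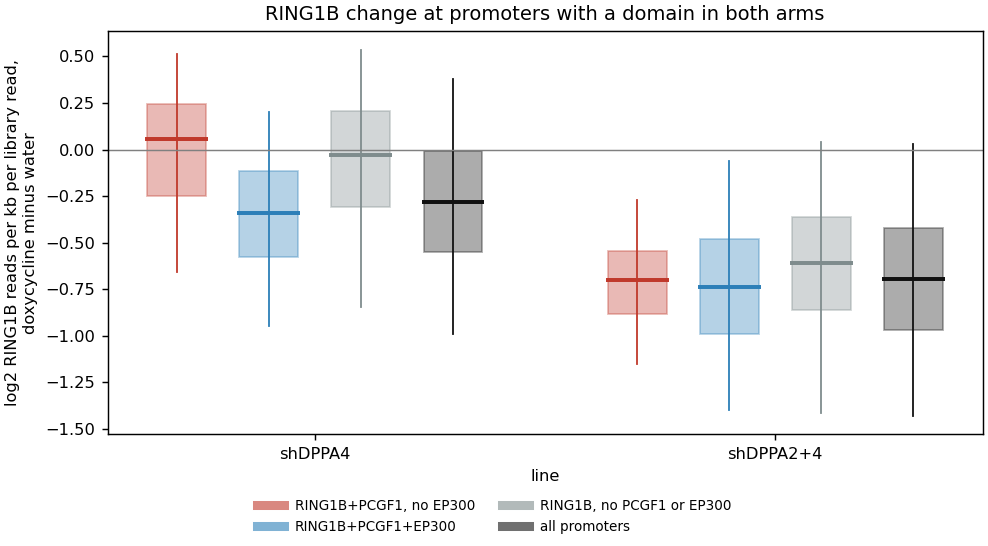
Log2 change of RING1B reads per kb per library read, doxycycline minus water (vertical axis), by promoter set in each line, among promoters with a domain in both arms. Thick lines are medians, boxes quartiles and thin lines the 5th to 95th percentile; RING1B and PCGF1 promoters without EP300 have a median of 0.06 in shDPPA4 and −0.70 in shDPPA2+4 cells.

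Among 129 promoters with RING1B in all 4 libraries, 122 had the lower change in shDPPA2+4 cells (6978 of 8969 over all promoters, 676 of 766 RING1B-only), and the median difference between lines was −0.80 on the log2 scale, compared with −0.41 at EP300-positive and −0.44 at all promoters. Only 5 were lower by over 1.5-fold in both lines (background 13.3%). The difference was not tested, with 1 library per arm. Its size also rests on library sizes, since without scaling the medians of the set were 0.42 in shDPPA4 and −0.0056 in shDPPA2+4 cells. HOX and other developmental factors had medians of 0.14 and −0.65 and the other genes 0.04 and −0.71. DPPA4n was kept after doxycycline at 18 of 32 and 15 of 30 of the developmental factors and at 61 of 102 and 67 of 95 of the other genes.

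**Figure D5:**
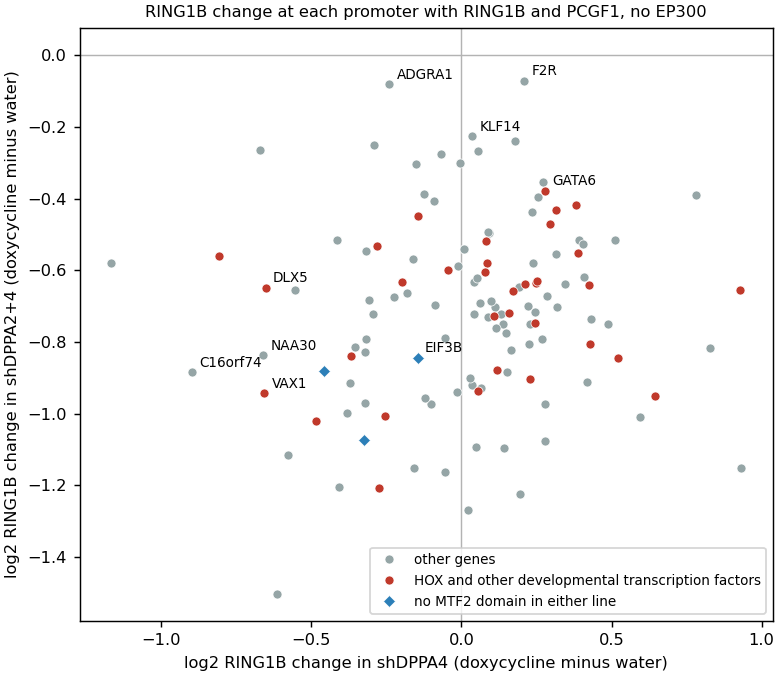
Log2 RING1B change in shDPPA4 cells (horizontal axis) and shDPPA2+4 cells (vertical axis) for each of the 129 promoters with a domain in all 4 libraries, with developmental transcription factors and promoters without MTF2 marked. Every promoter lies below 0 on the vertical axis, as did 8712 of 9243 over all promoters, while 0 on the horizontal axis runs through the cloud.

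Most of these promoters were CpG-rich. Within 500 bp of the TSS the CpG observed/expected ratio had a median of 0.82 (quartiles 0.74 and 0.88), the same as EP300-positive promoters (0.82) and above RING1B-only (0.76) and all promoters (0.72). By a GC content above 55% and a ratio above 0.75, 71.2% were CpG-rich, compared with 68.9%, 52% and 42.1%. A ratio below 0.5 was found at 3 (2.16%), PDGFRA (0.44) among them, compared with 1.45% of EP300-positive, 11.9% of RING1B-only and 28.2% of all promoters. In the 250 bases before the TSS, the GC box GGGCGG occurred on either strand at 68.3% of the 139, 78.2% of EP300-positive and 59.0% of all promoters. CCGGAA, the core of ETS family sites, occurred at 12.9%, 24.7% and 19.4%. CCAAT, the box bound by NF-Y, occurred at 33.8%, 43.4% and 34.3%, the E-box CACGTG at 8.63%, 8.23% and 7.85%, the E2F-like TTTCCCGC at 1.44%, 2.00% and 1.98%, and TATAAA at 5.76%, 4.63% and 9.36%. At RING1B-only promoters GGGCGG occurred at 71.2%, CCGGAA at 11.4% and CCAAT at 26.5%. The low CCGGAA share was thus not particular to the 139. Matches are a description of letters in the window and not binding sites.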

How the data were processed

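CUT&RUN libraries of human H661 and H1299 cells were analysed from the regions the authors deposited for each of 30 libraries; 8 IgG samples had no regions of their own. The authors trimmed reads with Trim Galore (0.6.6), aligned them to hg38 with BWA (0.7.13), used SAMtools (1.9) and Picard (2.6.0), and called peaks with MACS2 (2.27.1 in the submitters' processing notes) and domains with EPIC2, whose version for CUT&RUN is not given in the sources used here. The deposited EPIC2 files give raw read counts of library and IgG per domain, a log2 fold over IgG, a p-value with FDR and a score that follows from the log2 fold. The deposited MACS2 files give a fold ratio over local background, −log10 p-value and q-value, and a score from the q-value.

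Domains with FDR below 0.05 and log2 fold above 1 (MACS2: q below 0.05, fold above 2) on chromosomes 1 to 22 and X were kept, without the study's blacklist. MACS2 peaks served for parental H661 and EPIC2 domains elsewhere. Promoters came from GENCODE 44 on hg38, 19617 of 19962 at a canonical TSS and the rest at the 5′ end of the gene. The promoters described, the gene lists and the tests were chosen with earlier results of these data known. Named genes were the first 10 by density, up to 4 per gene list, and the extremes of RING1B change, MTF2, DPPA2/4 in H661 and number of H1299 libraries; since no promoter lost RING1B in both lines, those that lost it in either were named after this was seen. A promoter that this rule names is not reported here. ALOXE3 and the promoters named for having no DPPA2/4 region were also chosen after seeing values.

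Total depth cannot be read from region lists. Reads in domains ran from 93954 to 7049330 per library. Water and doxycycline libraries of an antibody shared an IgG control (equal IgG counts in 1436, 892, 445 and 535 domains with identical ends), so the offset between log2 fold and counts gave relative library sizes, 1.28 and 1.62 for RING1B and 0.561 and 1.93 for DPPA4n (doxycycline to water, shDPPA4 and shDPPA2+4). Density changes are per library read. Shares carry exact 95% binomial intervals. H1299 comparisons used exact permutation tests over antibody means or libraries with Benjamini-Hochberg adjustment over 3 tests (Python 3.11.15, NumPy 2.4.6, pandas 2.3.3, SciPy 1.17.1). The test code was checked on simulated data. H1299 replicates share the numbers 1 and 2, and replicate 1 had the higher share at these promoters for 6 of 6 antibodies. Alternatives covered the fold limit, promoter width, region overlap, rule, caller, scaling and left-out libraries.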

Additional observations from a re-analysis of the deposited data

Results flagged for a closer look

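The median log2 RING1B change at the promoters was 0.0558 in shDPPA4 cells and −0.698 in shDPPA2+4 cells. It was flagged because the same contrast, doxycycline against water, gave values on either side of 0 in the 2 lines. The interval of the shDPPA4 median, −0.0047 to 0.111, included 0. That median was below 0 with a fold limit of 2 or the rule on a single arm, and 0.42 unscaled. The shDPPA2+4 median was −0.0056 unscaled. The difference was not tested, since each line had 1 library per arm. Most promoters lay lower in shDPPA2+4 cells (122 of 129, and 6978 of 8969 over all promoters), and the RING1B domains of shDPPA4 cells lengthened after doxycycline, here as in the other promoter sets. Chance alone flags some samples as far from the rest of their group; none was so flagged in the 2 groups of H1299 libraries examined.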

How the results depend on the processing

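Of 297 alternative values for 24 results, 207 were classed as the same, 70 as moved and 8 as reversed. Another 12 kept their direction but no longer passed the test. For results without a test, these classes did not always follow the sign. The difference in RING1B loss in shDPPA4 cells from EP300-positive promoters, −0.096 points, became 0.813 without a fold limit and was classed as the same. The median RING1B change in these cells went from 0.056 to −0.049 with a limit of 2 and was classed as moved. A log2 fold limit of 2 gave 242 promoters, coverage of the TSS 81, and the rule on the shDPPA4 or shDPPA2+4 control arm alone 521 or 563. The share with MTF2 (main 93.9%) was 73.3%, 79.6% and 99.1% with a fold limit of 2, the shDPPA4 arm alone and no EP300 region at any fold. Its difference from EP300-positive promoters was 1.80, 1.71, −6.73, 12.0 and 12.6 points with no fold limit, a limit of 2, the shDPPA4 arm alone, MACS2 and no EP300 at any fold. DPPA2/4 in H661 stood at 67.4% (limit of 2), 24.7% (TSS covered) and 65.5% (EPIC2), and its difference at −14.8 (limit of 2) and −20.2 points (shDPPA4 arm).

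RING1B loss in shDPPA4 was 8.68% (limit of 2), 4.99% (shDPPA4 arm) and 0% (no EP300 at any fold), and its difference 3.33, 3.61, −0.987 (shDPPA2+4 arm), −2.06 (MACS2) and −0.815 points. In shDPPA2+4 loss was 40.9%, 12.3% (TSS covered), 15.7% and 15.5% (single arms). Its difference of −6.39 points turned to 1.22 (no limit), 7.52 (limit of 2), 0.393 and 1.10 (single arms), and was −18.6 with MACS2. The median RING1B change in shDPPA4 was −0.049, −0.14 and −0.038 (limit of 2, single arms), 0.42 unscaled, 0.34 centred on all promoters and 0.55 for total reads, and its difference 0.27, 0.20, 0.29, 0.69 (total reads) and 0.27 (matched density). In shDPPA2+4 it was −0.76 (TSS ± 500 bp), −0.0056 (unscaled or centred) and −0.62 (total reads), with differences of −0.010 and 0.14.

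DPPA4n loss in shDPPA4 was 29.4% (limit of 2), 27.4% (shDPPA4 arm) and 51.6% (MACS2), with differences of 26.2, 25.4 and, for the shDPPA2+4 arm, 31.1 points. In shDPPA2+4 it was 15.9% (shDPPA4 arm) and 51.3% (MACS2), with differences of 15.1, 25.5 (shDPPA2+4 arm) and 50.3 points. Its median was −1.33 and 0.13 unscaled, −0.12 and −0.19 centred and −2.29 and −1.99 for total reads (shDPPA4 and shDPPA2+4). In H1299, leaving out an antibody or a replicate moved the differences between −33.2 and −28.0 and between 15.2 and 20.3 points. Without an antibody the p was 0.0625 (adjusted 0.0938), the smallest 5 antibodies allow in this exact test. With 12 libraries as units the exact permutation p was 0.000488. This counts replicates of an antibody in the same cell line as independent, which they are not, so nothing is read from it. The comparison of DPPA2-directed with DPPA4-directed libraries ranged from −18.7 to 0.719 points as replicates or antibodies were left out, turning positive without replicate 2. With a replicate block, labels permuted within replicate number, it was −8.99 points (exact permutation p = 0.385). Total reads, MACS2 for changes, matched density, strict EP300 absence and the left-out thin Flag library were chosen after seeing the data. The cause of these shifts was not tested.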
